A study of Rattus norvegicus with 12 samples.

Results

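The genes of the translation initiation and elongation factors were followed in the left ventricle of rats 1 day after surgery. They were taken by symbol, as every protein-coding gene of the count table whose symbol starts with Eif1 to Eif6, Eef1 or Eef2, so that the eIF2α kinases (Eif2ak1 to Eif2ak4) and the kinase and methyltransferases that act on elongation factors are included. This gave 63 of the 34599 genes listed, and 62 of them had enough counts to be tested. The exception was Eef1akmt3, a methyltransferase gene with at most 0.774 CPM (counts scaled to a library of fixed size) in any rat. RNA-seq of total RNA covered 12 male Sprague-Dawley rats. Sham rats (n = 4) had a thoracotomy without ligation, and MI rats (n = 4) had the left anterior descending coronary artery ligated. iCarP+/Light+ rats (n = 4) had the same ligation and then received Chlorella, a green alga, in the infarcted wall, the light-diffusing patch with its CCS@gel adhesive on the epicardium, and illumination. The last 2 groups therefore differ in alga, patch, adhesive and light together, and rats with the patch but no light were not analysed here. Each library came from 1 animal.

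Translation starts when eIF2, carrying GTP and the initiator tRNA, joins the small ribosomal subunit together with eIF1, eIF1A, eIF3 and eIF5, and the complex is brought to the capped mRNA by eIF4F, which consists of the cap-binding protein eIF4E, the helicase eIF4A and the scaffold eIF4G. During elongation eEF1A delivers aminoacyl-tRNA, the eEF1B complex recharges eEF1A with GTP, and eEF2 moves the ribosome along the mRNA. Cells slow translation by phosphorylating eIF2, which blocks its exchange factor eIF2B, by binding eIF4E with the eIF4E-binding proteins, and by phosphorylating eEF2 through eEF2 kinase. Heart and skeletal muscle are known for a switch after birth from the widely expressed eEF1A1 to the muscle and neuron form eEF1A2.

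The promoters of 2 pairs of related genes whose levels moved in opposite directions after ligation, Eef1a1 with Eef1a2 and Eif4a1 with Eif4a2, are shown first, followed by 2 promoters that hold the E-box motif CACGTG. Each is the RefSeq sequence of the 250 bases before the annotated start on build GRCr8, in the direction of transcription, with CACGTG in capitals where it occurs. Eef1a1 lies at chr8:88225070-88225319, Eef1a2 at chr3:188652634-188652883, Eif4a1 at chr10:54888603-54888852, Eif4a2 at chr11:91275324-91275573 and Eif5a at chr10:55143222-55143471, all on the minus strand, and Eif4e lies at chr2:229740503-229740752 on the plus strand.
Eef1a1: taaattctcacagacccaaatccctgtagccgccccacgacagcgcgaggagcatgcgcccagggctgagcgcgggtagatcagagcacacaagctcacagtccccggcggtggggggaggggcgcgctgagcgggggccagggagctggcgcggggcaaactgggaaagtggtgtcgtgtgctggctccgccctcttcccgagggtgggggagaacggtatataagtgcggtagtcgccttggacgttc
Eef1a2: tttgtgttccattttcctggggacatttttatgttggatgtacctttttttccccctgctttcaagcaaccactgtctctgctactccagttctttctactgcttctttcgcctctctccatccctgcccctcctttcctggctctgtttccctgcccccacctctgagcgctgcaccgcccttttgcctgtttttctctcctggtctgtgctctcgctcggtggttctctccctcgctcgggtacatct
Eif4a1: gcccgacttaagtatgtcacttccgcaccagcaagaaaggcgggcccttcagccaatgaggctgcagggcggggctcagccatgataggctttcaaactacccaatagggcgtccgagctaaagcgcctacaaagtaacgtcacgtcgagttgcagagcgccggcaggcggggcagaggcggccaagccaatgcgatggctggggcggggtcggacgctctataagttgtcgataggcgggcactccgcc
Eif4a2: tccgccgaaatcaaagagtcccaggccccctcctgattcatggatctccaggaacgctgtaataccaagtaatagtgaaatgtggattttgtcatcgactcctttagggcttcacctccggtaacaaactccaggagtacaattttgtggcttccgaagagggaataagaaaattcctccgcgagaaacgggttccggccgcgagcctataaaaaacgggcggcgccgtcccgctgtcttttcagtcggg
Eif4e: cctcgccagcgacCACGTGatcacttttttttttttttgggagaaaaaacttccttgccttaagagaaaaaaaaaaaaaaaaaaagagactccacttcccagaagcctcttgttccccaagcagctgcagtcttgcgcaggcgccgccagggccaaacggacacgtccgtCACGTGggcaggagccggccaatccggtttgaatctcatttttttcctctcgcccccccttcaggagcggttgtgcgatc
Eif5a: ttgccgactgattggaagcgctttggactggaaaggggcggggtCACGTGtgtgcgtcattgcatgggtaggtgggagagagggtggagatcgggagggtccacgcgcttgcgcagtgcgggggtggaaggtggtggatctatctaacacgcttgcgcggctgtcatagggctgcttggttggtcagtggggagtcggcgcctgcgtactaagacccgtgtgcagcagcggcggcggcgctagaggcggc

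The Eef1a1 and Eif4a1 stretches were 65.6% and 61.6% G or C, and those of Eef1a2 and Eif4a2 were 52.8% and 51.6%. CACGTG, which reads the same on both strands, was absent from these 4 stretches, occurred 2 times in that of Eif4e (first bases at -237 and -80 from the start) and 1 time in that of Eif5a (first base at -206). RefSeq promoters of 300 bases (250 before and 50 after the start) were found for 56 of the 63 genes. No entry was matched for Eef1akmt3, Eef1d, Eif3el1, Eif3h, Eif4b, Eif4e3 and Eif4ebp1. The motif was in 12 of the 56 (21.4%) and in 2148 of 33469 rat promoters of that length (6.42%), and the median G or C content was 60.3% in the former and 51.7% in the latter. The 12 genes were Eef1akmt4, Eef2, Eef2k, Eif1b, Eif3a, Eif3b, Eif3f, Eif4e, Eif4g1, Eif4h, Eif5a and Eif5a2. After ligation 5 of these 12 were higher and 1 was lower, against 22 higher and 6 lower of the other 44, with median log2 fold changes of 0.16 and 0.27. Of all genes tested 30.2% were higher and 33.6% were lower after ligation. The C/EBP-ATF composite motif TGATGNAA, searched on both strands and not overlapping CACGTG in its letters, was in 2 of the 56 (3.57%; Eif2s2 and Eif3g) and in 3.98% of all promoters. These are matches of letters only.

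Total counts were 14064414 to 17136958 per rat. Mitochondrial genes took 22.8% to 28.9% of them in Sham, 8.52% to 11.5% in MI and 7.14% to 14.2% with iCarP+/Light+. Levels are given as CPM scaled by edgeR's TMM factors, and differences as log2 fold changes with their SE. A gene was called higher or lower where the Benjamini-Hochberg adjusted p of edgeR's quasi-likelihood test, over all 15101 genes tested, was below 0.05. All 10 cardiomyocyte markers were lower in MI than in Sham, and their summed level went from 59404 to 64332 CPM in Sham to 3704 to 7463 in MI and 3151 to 8660 with iCarP+/Light+. The summed level of the 10 leukocyte markers tested was 240.3 to 425 CPM in Sham, 3798 to 6881 in MI and 5813 to 10333 with iCarP+/Light+, with 9 of 10 higher in MI. The markers of endothelial cells (0 higher and 6 lower of 6) and fibroblasts (0 and 6 of 7) were mostly lower in MI, as were those of red blood cells (0 and 5 of 5), of which 4 were higher in iCarP+/Light+ against MI. No marker tested was at 0 in every rat, and Pln, Tnnt2 and the other defining cardiomyocyte genes were detected in each group. In these bulk samples fewer cells of a type and less RNA of a gene per cell cannot be told apart, and the part of these markers in the results on translation factors was not tested.

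Ligation was followed by higher levels of many translation factor mRNAs. Of the 62 genes tested, 29 were higher in MI than in Sham (46.8%, against 30.2% of all genes tested) and 8 were lower (12.9%, against 33.6% of all genes tested). Their median log2 fold change was 0.25, and that of all genes tested was -0.06. The log2 fold changes ran from -3.17 for Eef1a2 to 1.95 for Eif1a. The largest increases were in Eif1a, Eef1akmt4, Eif4a1, Eef1e1 and Eif2b3, and the 8 lower genes were Eef1a2, Eif2ak2, Eif4e3, Eif4a2, Eif2b4, Eif3j, Eif1 and Eef2k.

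With alga, patch and light on top of the ligation, many of these genes were again called against Sham and few against MI. Against Sham, 30 of the 62 genes were higher (33.5% of all genes tested were) and 6 were lower (33.0% of all genes tested were), with a median log2 fold change of 0.27. Against MI, 3 genes were higher (4.84%, against 11.6% of all genes tested) and none was lower (2.01% of all genes tested were) by edgeR's adjusted p, with a median of -0.09 against 0.01 over all genes tested. At an unadjusted p below 0.05 there were 8 genes, 3 of them lower, and DESeq2 called 4 lower. The shares of all genes by these criteria were not taken, so these counts do not set the factors apart from other genes. With total counts alone as scaling many more members were lower, as given below, with a median of -0.35 beside -0.25 over all genes. The comparison of iCarP+/Light+ with MI shares its MI rats with the comparison of MI with Sham, so the 2 sets of values are given side by side. The 3 genes higher than in MI were Eif1, Eif4e3 and Eif4ebp1.

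**Figure D1:**
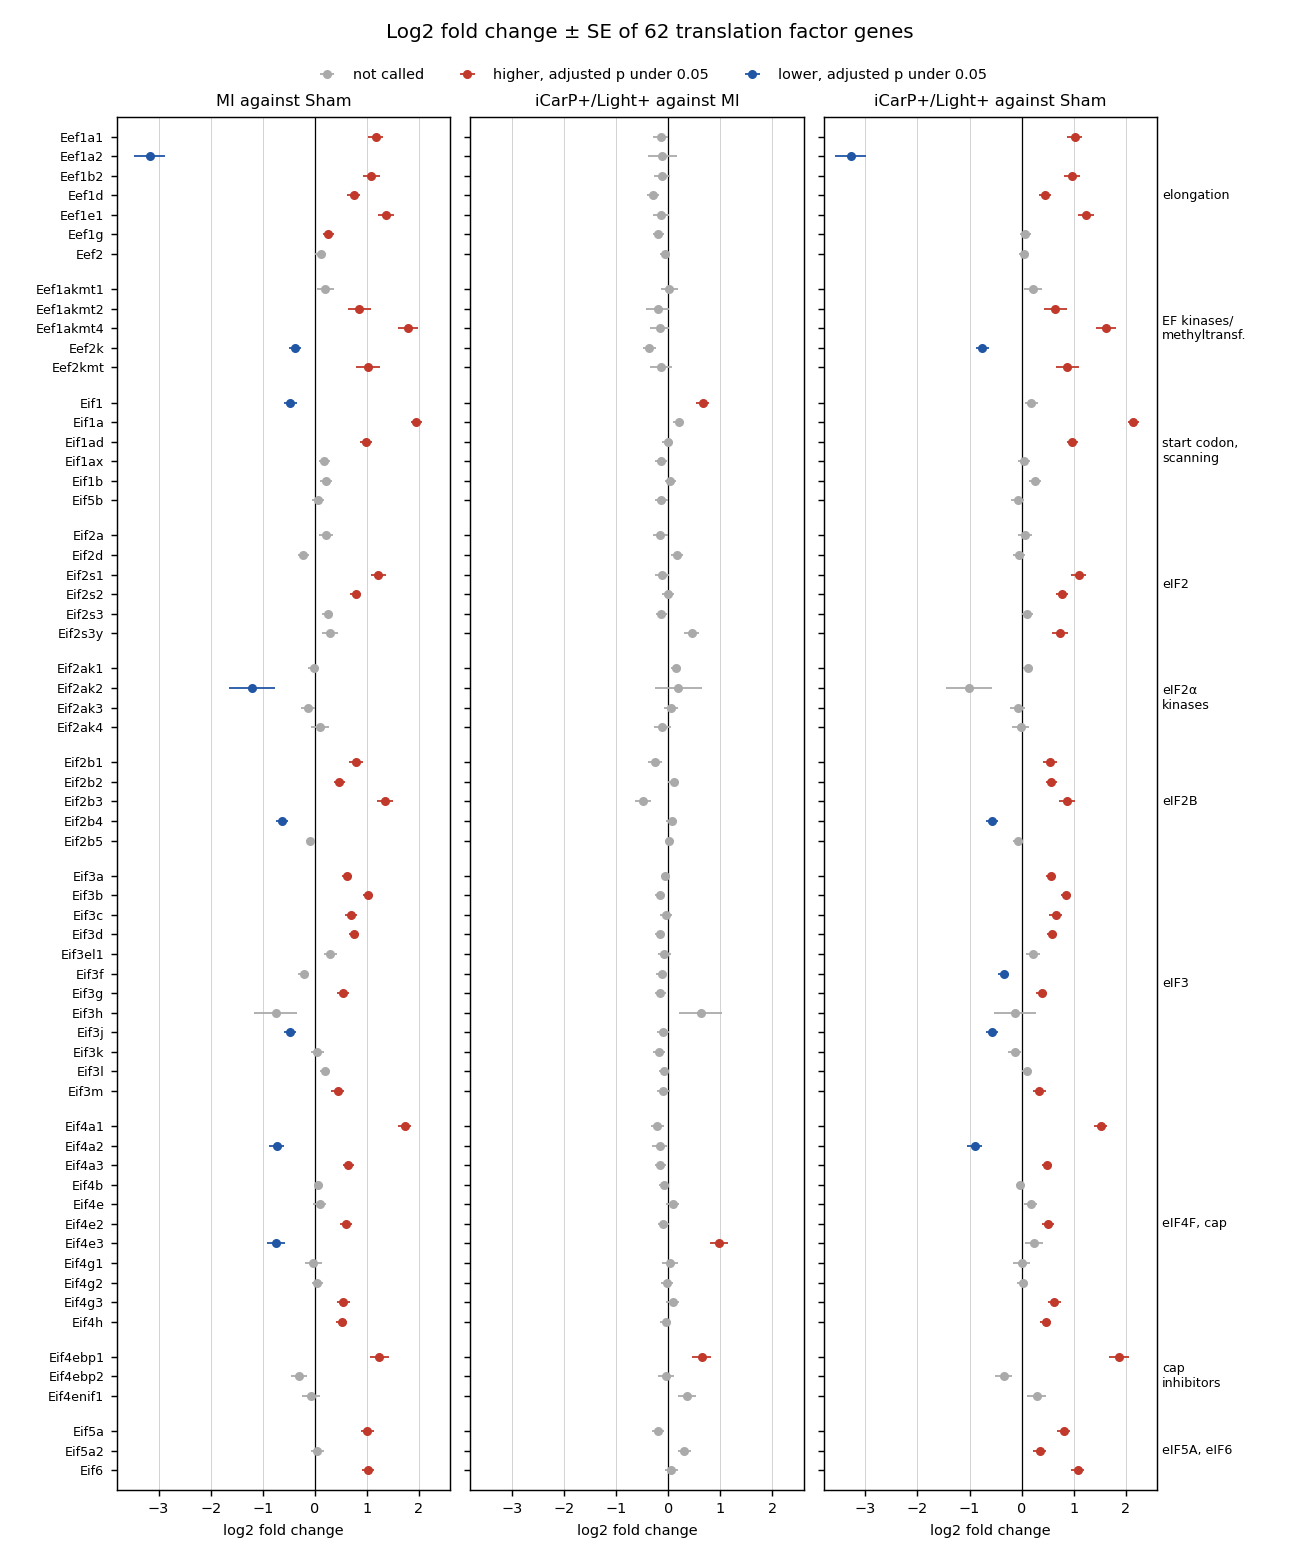
Log2 fold change (x axis, point) and SE (bar) of the 62 translation factor genes tested (y axis, grouped by role) in the 3 comparisons, with genes at an adjusted p below 0.05 in red where higher and in blue where lower. In MI against Sham 29 points are red and 8 blue, in iCarP+/Light+ against MI 3 are red, and in iCarP+/Light+ against Sham 30 are red and 6 blue.

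Elongation factors held both the widest fall and large increases. Of 7 genes, 5 were higher and 1 was lower in MI than in Sham, and 4 were higher and 1 was lower in iCarP+/Light+ than in Sham. The shares of all genes tested were 30.2% higher and 33.6% lower in the former comparison, and 33.5% and 33.0% in the latter. Eef1a2 (chr3:176657107-176666282 on rn6), the muscle and neuron form of the tRNA carrier eEF1A, was at 1074, 1076, 1129 and 1306 CPM in Sham rats 1, 2, 3 and 5. It was at 70.6, 166, 135 and 138 CPM in MI rats 1, 3, 4 and 5, and at 157, 148, 97.7 and 68.4 CPM in iCarP+/Light+ rats 1, 2, 4 and 5. Every rat with a ligated artery was far below every Sham rat, and the MI and iCarP+/Light+ ranges overlapped. The log2 fold change was -3.17 ± 0.30 (SE) in MI against Sham (edgeR adjusted p = 1.29e-06), -3.28 ± 0.30 in iCarP+/Light+ against Sham (edgeR adjusted p = 7.58e-07) and -0.11 ± 0.27 in iCarP+/Light+ against MI (edgeR adjusted p = 0.842).

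Eef1a1 (chr8:85838869-85840818 on rn6), the form found in most cells, moved the other way. It was at 2122, 1814, 2177 and 2444 CPM in the Sham rats, 5217, 4815, 4820.4 and 4316 CPM in the MI rats, and 4144, 3531, 4384 and 5274 CPM in the iCarP+/Light+ rats, in the order of rats above, which is kept for all values by rat. No Sham rat reached the level of any ligated rat. Its log2 fold change was 1.16 ± 0.15 in MI against Sham (2.24-fold; edgeR adjusted p = 2.02e-05) and -0.15 ± 0.15 in iCarP+/Light+ against MI (edgeR adjusted p = 0.607). Listed loci described as eEF1A1-like (LOC100360413 and LOC100911991) were at 18.1 and 9.51 CPM in Sham, so the reads of Eef1a1 and its copies may be split between entries. Per kilobase of gene length, Eef1a2 made up 27.1% ± 1.40 (SD, n = 4) of the Eef1a1 and Eef1a2 counts in Sham, 1.83% ± 0.627 in MI and 1.94% ± 0.899 with iCarP+/Light+. The within-rat log2 ratio of Eef1a2 to Eef1a1 differed by -4.40 between MI and Sham (two-sided exact permutation p = 0.0286, adjusted p = 0.0396 over 18 comparisons), where 0.0286 is the smallest p that 4 rats against 4 allow. Between iCarP+/Light+ and MI it differed by 0.03 (exact permutation p = 0.943).

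The eEF1B exchange subunits differed in size of change. Eef1b2 rose by a log2 fold change of 1.09 ± 0.15 and Eef1d by 0.74 ± 0.12 in MI against Sham, while the increase of Eef1g was 0.26 ± 0.11 (edgeR adjusted p = 0.0461) and its call was lost with no filter beyond 1 count, with the replicate block, and when any 1 of 8 rats (MI rat 1, 3 or 4, iCarP+/Light+ rat 4, or any Sham rat) was left out. In iCarP+/Light+ against Sham Eef1g had 0.07 ± 0.11 and was not called. Eef1e1, a scaffold protein of the aminoacyl-tRNA synthetase complex, was at 22.5, 20.6, 19.4 and 17.5 CPM in Sham, 47.2, 49.1, 69.8 and 40.9 CPM in MI, and 49.1, 44.2, 48.0 and 46.8 CPM with iCarP+/Light+. Sham rats were below all ligated rats, with a log2 fold change of 1.37 ± 0.15 in MI against Sham (edgeR adjusted p = 4.86e-06). Eef2, the translocase, was at 1892 to 2053 CPM in Sham, 1973 to 2169 in MI and 1967 to 2080.2 with iCarP+/Light+. These ranges overlapped, and the log2 fold change in MI against Sham was 0.11 ± 0.10 (edgeR adjusted p = 0.358), which 3 of the 9 alternative fits called higher (total counts alone, DESeq2, and only the rats of these 2 groups). On the per-kilobase scale Eef1a1 had the highest level of the elongation factors in Sham, 1540.1 CPM per kb, followed by Eef2 at 668, Eef1a2 at 570.0 and Eef1g at 508 CPM per kb.

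**Figure D2:**
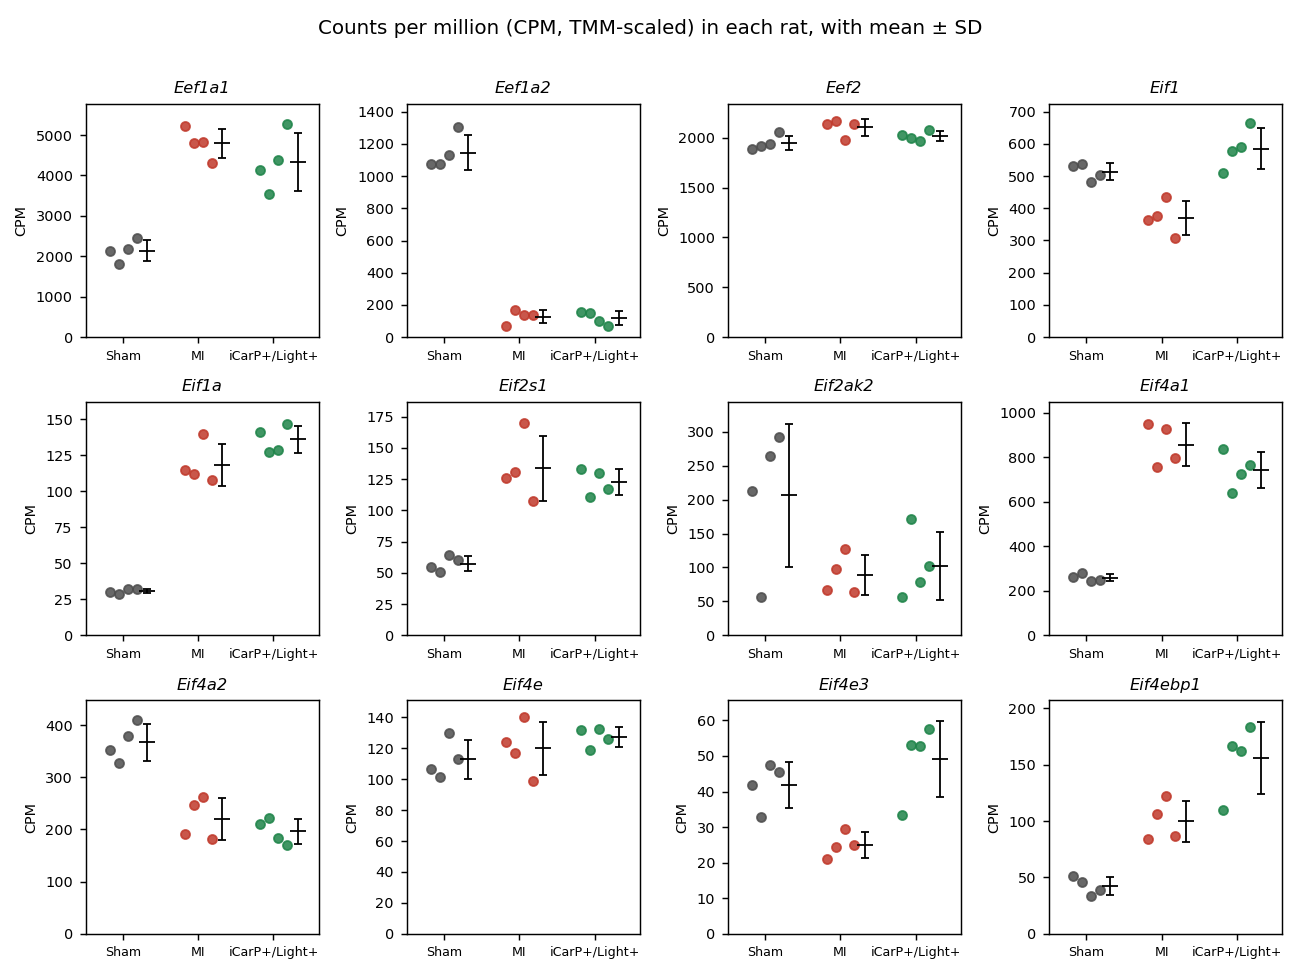
CPM (y axis, from 0) of 12 translation factor genes in each rat (points) of the 3 groups (x axis), with the mean and SD of 4 rats in black. Eef1a1, Eif1a, Eif2s1, Eif4a1 and Eif4ebp1 are lowest and Eef1a2 and Eif4a2 highest in the Sham rats, Eif1 and Eif4e3 are lowest in MI, and 1 Sham rat has 56.5 CPM of Eif2ak2, below the MI values.

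Of the genes that modify elongation factors, 3 of 5 were higher and 1 was lower in MI than in Sham, where 30.2% of all genes tested were higher and 33.6% lower. Eef2k, the kinase that inhibits eEF2, was at 74.0, 83.6, 80.3 and 81.7 CPM in Sham, 67.3, 48.9, 66.2 and 61.5 CPM in MI, and 53.3, 48.8, 40.9 and 46.6 CPM with iCarP+/Light+. Every Sham rat was above every ligated rat, and MI and iCarP+/Light+ rats overlapped at the level of MI rat 3. The log2 fold changes were -0.39 ± 0.12 in MI against Sham (edgeR adjusted p = 0.0108), -0.36 ± 0.12 in iCarP+/Light+ against MI (edgeR adjusted p = 0.0608) and -0.75 ± 0.12 in iCarP+/Light+ against Sham (edgeR adjusted p = 9.35e-05). Scaling by total counts turned the first to 0.19, where the median of all genes was 0.52, and its call was also lost without iCarP+/Light+ rat 5 and with only the rats of these 2 groups in the fit. The second was called in 5 of the 9 alternative fits. Eef1akmt4, a lysine methyltransferase of eEF1A, was at 3.76, 4.51, 3.34 and 3.98 CPM in Sham, 14.2, 12.4, 15.9 and 11.4 CPM in MI, and 16.2, 9.67, 11.0 and 11.1 CPM with iCarP+/Light+. All ligated rats were above all Sham rats, with a log2 fold change of 1.78 ± 0.19 in MI against Sham (edgeR adjusted p = 4.18e-06). Eef1akmt2 and Eef2kmt rose by log2 fold changes of 0.85 ± 0.22 and 1.02 ± 0.22, and Eef1akmt1 had 0.20 ± 0.17, which was not called. The gene span of Eef2kmt, introns included, shares 499 bases with that of Alg1 on the opposite strand, and Eef2kmt had at most 4.10 CPM. The strand setting of the counting is not given in the sources used here.

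Among the start-codon and scanning factors 2 of 6 were higher and 1 was lower in MI than in Sham, where the share of higher genes (33.3%) was near that of all genes tested (30.2%). Eif1a, a gene for the scanning factor eIF1A, rose most of all 62 genes. It was at 29.8, 29.0, 32.2 and 31.8 CPM in Sham, 115, 112, 139.8 and 108 CPM in MI, and 141, 128, 129 and 147 CPM with iCarP+/Light+. The ligated rats of both groups lay well above the narrow Sham range, with log2 fold changes of 1.95 ± 0.11 in MI against Sham (3.86-fold; edgeR adjusted p = 5.19e-08) and 2.15 ± 0.11 in iCarP+/Light+ against Sham (edgeR adjusted p = 1.41e-08). Its X-linked relative Eif1ax, at 149 ± 16.0 CPM (SD) in Sham, had a log2 fold change of 0.18 ± 0.11 in MI against Sham, which was not called and which 4 of the 9 alternative fits called higher. Reads that fit both genes could be split between the 2 entries. Eif1ad, a gene for an eIF1A domain protein, rose by 0.99 ± 0.11, and Eif5b, the factor for subunit joining, had 0.06 ± 0.12.

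Eif1, whose protein guards the choice of the start codon, was lower in MI than in both other groups. Its values were 530.2, 538, 480.4 and 504 CPM in Sham, 362, 377, 437 and 307 CPM in MI, and 509, 579, 589 and 666 CPM with iCarP+/Light+. The MI rats lay below all others, and the Sham and iCarP+/Light+ ranges overlapped. The log2 fold change was -0.47 ± 0.13 in MI against Sham (edgeR adjusted p = 0.00531), 0.66 ± 0.13 in iCarP+/Light+ against MI (1.58-fold; edgeR adjusted p = 0.00334) and 0.19 ± 0.13 in iCarP+/Light+ against Sham (edgeR adjusted p = 0.200). With total counts as scaling the first value became 0.10, beside a median of 0.52 over all genes. The third became 0.50 and was called higher (edgeR adjusted p = 0.00187), beside a median of 0.33. The paralog Eif1b did not pass the test in any comparison, while 5 of the 9 alternative fits called it higher in MI than in Sham and 5 of 9 higher in iCarP+/Light+ than in Sham. Its share of the Eif1 and Eif1b counts per kilobase was 9.07% ± 0.547 (SD, n = 4) in Sham, 13.8% ± 0.364 in MI and 9.49% ± 0.956 with iCarP+/Light+. The log2 ratio of Eif1b to Eif1 was 0.69 higher in MI than in Sham and differed by -0.62 between iCarP+/Light+ and MI (two-sided exact permutation p = 0.0286 for both, adjusted p = 0.0396).

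The subunits of eIF2, which brings the initiator tRNA, differed among themselves. Eif2s1, the α subunit that is phosphorylated under stress, was at 54.5, 50.8, 64.2 and 60.5 CPM in Sham, 126, 131, 170.2 and 108 CPM in MI, and 133, 111, 129.8 and 117 CPM with iCarP+/Light+. All ligated rats exceeded all Sham rats, and the log2 fold change was 1.22 ± 0.14 in MI against Sham (2.32-fold; edgeR adjusted p = 7.07e-06) and -0.12 ± 0.14 in iCarP+/Light+ against MI (edgeR adjusted p = 0.640). Eif2s2, the β subunit, rose by a log2 fold change of 0.78 ± 0.11, and Eif2s3, the X-linked γ subunit, had 0.25 ± 0.11 (edgeR adjusted p = 0.0611), which 6 of the 9 alternative fits called higher. Eif2s3y, the Y-linked copy of the γ subunit, was at 55.8, 61.4, 70.9 and 61.2 CPM in Sham, 84.2, 70.4, 86.0 and 63.5 CPM in MI, and 80.8, 97.6, 107 and 129 CPM with iCarP+/Light+. Its values in MI lay between those of the other groups and overlapped both. In MI against Sham it was not called, although 4 of the 9 alternative fits called it higher, and it was called higher in iCarP+/Light+ than in Sham (log2 fold change 0.73 ± 0.15; edgeR adjusted p = 0.000742). Eif2a and Eif2d, which can deliver initiator tRNA by other routes, did not pass the test in any comparison. In MI against Sham 2 of the 9 alternative fits called Eif2a higher. Eif2d had -0.22 ± 0.11 there and was called lower without MI rat 3. It was called higher with total counts alone, at 0.36 beside a median of 0.52 over all genes.

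Of the 4 eIF2α kinases, Eif2ak2 passed the test in MI against Sham and the others in no comparison. Eif2ak2, also known as PKR and activated by double-stranded RNA, was at 213, 56.5, 264 and 291 CPM in Sham, 66.6, 97.5, 128 and 64.2 CPM in MI, and 56.1, 171, 78.8 and 102 CPM with iCarP+/Light+. Sham rat 2 lay below all MI rats, so that the groups overlapped, while the other 3 Sham rats lay above every ligated rat. The log2 fold change of -1.21 ± 0.45 in MI against Sham passed narrowly (edgeR adjusted p = 0.0304). It failed with total counts as scaling (-0.63; adjusted p = 0.194), with limma-voom (-1.03; adjusted p = 0.0722), with the replicate block (-1.28; adjusted p = 0.0768), and when any 1 of 7 rats was left out (MI rat 1, 3 or 5, iCarP+/Light+ rat 5, or Sham rat 1, 3 or 5), with values between -1.25 and -0.996. In iCarP+/Light+ against Sham it was -1.01 ± 0.45 (edgeR adjusted p = 0.0600), and it was called with DESeq2 (-0.996; adjusted p = 0.0322), without iCarP+/Light+ rat 2 (-1.38; edgeR adjusted p = 0.0197) and without Sham rat 2 (-1.33; edgeR adjusted p = 0.00436). Eif2ak1, the heme-regulated kinase, Eif2ak3, the endoplasmic reticulum kinase PERK, and Eif2ak4, the amino acid sensor GCN2, had means of 52.6, 24.1 and 15.2 CPM in Sham. Their log2 fold changes in MI against Sham were -0.02 ± 0.10, -0.13 ± 0.14 and 0.10 ± 0.17 (edgeR adjusted p of 0.863, 0.408 and 0.629), with overlapping ranges in all 3 comparisons. The gene span of Eif2ak4, introns included, shares 3282 bases with that of Srp14 on the opposite strand. Scaling by total counts called all 3 higher, at 0.56 for Eif2ak1, 0.46 for Eif2ak3 and 0.69 for Eif2ak4, beside its median of 0.52 over all genes.

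The 5 subunits of eIF2B, the guanine nucleotide exchange factor of eIF2, moved unequally. Eif2b1, Eif2b2 and Eif2b3 were higher in MI than in Sham, Eif2b4 was lower, and Eif2b5, the catalytic ε subunit, was not called. Of all genes tested 30.2% were higher and 33.6% lower there. Eif2b3 was at 10.5, 13.8, 10.4 and 11.0 CPM in Sham, 30.4, 26.6, 35.2 and 24.3 CPM in MI, and 25.0, 17.8, 19.8 and 20.7 CPM with iCarP+/Light+. Sham was lowest without overlap, and 3 of 4 iCarP+/Light+ rats were below all MI rats. Its log2 fold change was 1.35 ± 0.16 in MI against Sham (edgeR adjusted p = 7.07e-06) and -0.48 ± 0.15 in iCarP+/Light+ against MI (edgeR adjusted p = 0.0507), a difference that 6 of the 9 alternative fits called. Eif2b4 was at 45.2, 42.6, 39.3 and 45.2 CPM in Sham, 25.4, 27.8, 32.8 and 25.0 CPM in MI, and 32.6, 28.2, 28.0 and 27.2 CPM with iCarP+/Light+. Every ligated rat was below every Sham rat, and the log2 fold change was -0.63 ± 0.11 in MI against Sham (edgeR adjusted p = 0.000228), which total counts as scaling moved to -0.06 and ended the call. The gene span of Eif2b1, introns included, shares 12394 bases with that of Ddx55 on the opposite strand, while the counted length of Eif2b1 is 2554 bases. Reads in any bases that lie in exons of both genes cannot be told apart without strand.

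Of the 12 genes listed under eIF3, the scaffold of the initiation complex, 6 were higher in MI than in Sham (Eif3a, Eif3b, Eif3c, Eif3d, Eif3g and Eif3m) and 1 was lower (Eif3j), beside 30.2% higher and 33.6% lower of all genes tested. In iCarP+/Light+ against Sham 6 were higher and 2 were lower (Eif3f and Eif3j), beside 33.5% and 33.0% of all genes tested, and both lower calls were lost with total counts as scaling. The 12 genes had a median of -0.10 in iCarP+/Light+ against MI. Eif3el1, Eif3k and Eif3l had log2 fold changes of 0.30 ± 0.13, 0.05 ± 0.12 and 0.19 ± 0.09 in MI against Sham and were not called, while 6, 1 and 5 of the 9 alternative fits called them higher. Eif3b, a core subunit with an RNA recognition motif, was at 145, 146, 143 and 154 CPM in Sham, 327, 287, 298 and 280.3 CPM in MI, and 280.4, 241, 270.0 and 275 CPM with iCarP+/Light+. Sham rats were below all others, with a log2 fold change of 1.02 ± 0.09 in MI against Sham (2.03-fold; edgeR adjusted p = 1.28e-06). Eif3j, a loosely bound subunit, had a mean of 134 ± 13.9 CPM (SD) in Sham and 96.5 ± 8.61 CPM in MI, a log2 fold change of -0.48 ± 0.12 (edgeR adjusted p = 0.00307) that became 0.10 and was not called with total counts as scaling. The entry listed as Eif3h varied most, with 117 CPM in Sham rat 2 and 99.2 CPM in iCarP+/Light+ rat 2 against 28.2 to 61.5 CPM in the other rats, and its log2 fold change in MI against Sham was -0.75 ± 0.41 (edgeR adjusted p = 0.128). A second locus described as eIF3 subunit H (LOC108348062) was at 2.22, 6.45 and 4.83 CPM in Sham, MI and iCarP+/Light+, so the 2 entries may divide reads.

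Of the 11 genes of eIF4F and cap binding, 5 were higher and 2 were lower in MI than in Sham, beside 30.2% and 33.6% of all genes tested, and the helicase genes moved apart. Eif4a1 (chr10:56271257-56276764 on rn6), the main eIF4A of proliferating cells, was at 261, 279, 245 and 249 CPM in Sham, 949, 754, 927 and 796 CPM in MI, and 835, 641, 724 and 767 CPM with iCarP+/Light+. Eif4a2 (chr11:81373048-81379871 on rn6), its close paralog, was at 353, 327, 379 and 409.9 CPM in Sham, 191, 247, 263 and 181 CPM in MI, and 210.5, 222, 184 and 169.7 CPM with iCarP+/Light+. Neither gene's Sham values overlapped those of the ligated rats, and the MI and iCarP+/Light+ values overlapped for both. The log2 fold changes in MI against Sham were 1.73 ± 0.12 for Eif4a1 (3.31-fold; edgeR adjusted p = 1.92e-07) and -0.74 ± 0.14 for Eif4a2 (edgeR adjusted p = 0.000596). With total counts as scaling the latter was -0.16 and not called, a value of -0.68 once the all-gene median is subtracted. The share of Eif4a2 in the counts of both genes per kilobase was 51.9% ± 3.77 (SD, n = 4) in Sham, 16.5% ± 3.0 in MI and 16.9% ± 2.76 with iCarP+/Light+. Its within-rat log2 ratio to Eif4a1 differed by -2.47 between MI and Sham (two-sided exact permutation p = 0.0286, adjusted p = 0.0396) and by 0.05 between iCarP+/Light+ and MI (exact permutation p = 0.857). Small nucleolar RNA genes lie within both genes but held at most 49 reads each over all rats.

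**Figure D3:**
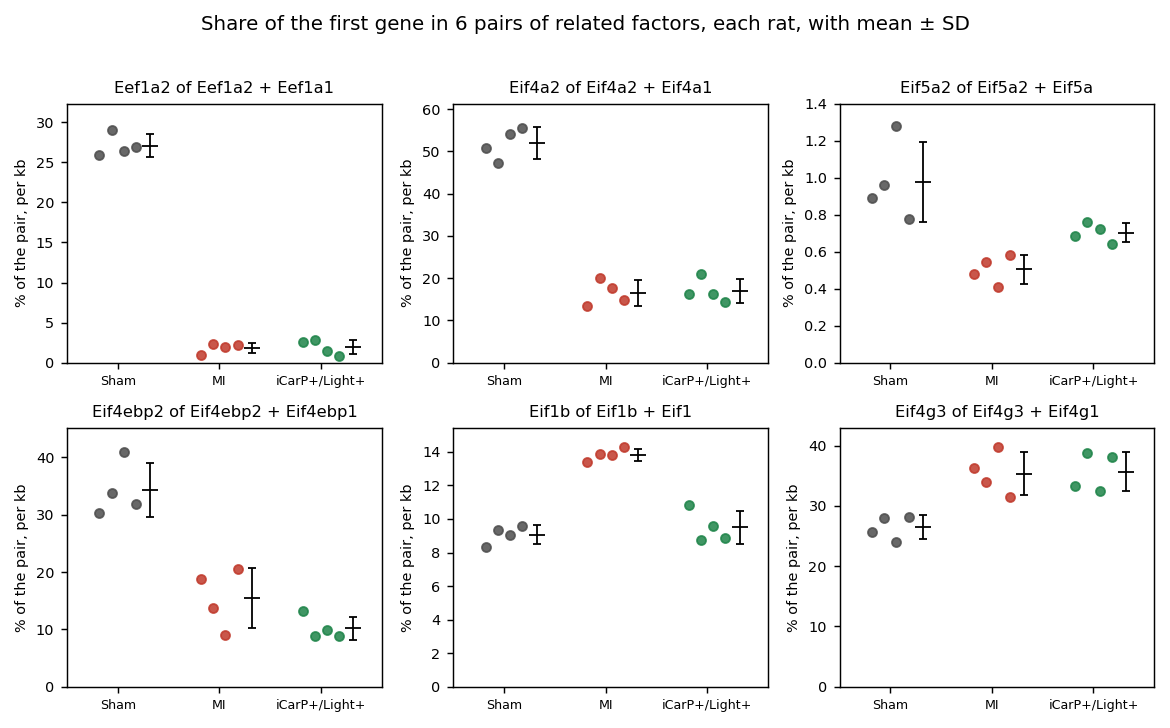
Share of the first-named gene in the summed counts per kilobase of 6 pairs of related factors (y axis, percent, from 0) in each rat (points), with the mean and SD of 4 rats in black. Eef1a2 falls from 27.1% of its pair in Sham to 1.83% in MI and Eif4a2 from 51.9% to 16.5%, with iCarP+/Light+ at 1.94% and 16.9%.

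The cap-binding genes did not move as 1 group. Eif4e, the cap-binding subunit, was at 107, 101, 130.2 and 113 CPM in Sham, 124, 117, 140.3 and 98.9 CPM in MI, and 132, 119, 133 and 126 CPM with iCarP+/Light+, and Eif4g1, the scaffold, was at 202, 201, 229 and 192 CPM, 223, 187, 136 and 259 CPM, and 201, 195, 222 and 206 CPM in the same groups. All 3 groups overlapped for both genes. Their log2 fold changes in MI against Sham were 0.09 ± 0.12 and -0.03 ± 0.16 (edgeR adjusted p of 0.526 and 0.867). With total counts as scaling Eif4e had 0.67 and Eif4g1 had 0.56, beside a median of 0.52 over all genes. Both were then called higher (edgeR adjusted p of 0.000129 and 0.0135). Eif4e2, a cap-binding relative that does not join eIF4F, and Eif4g3, a second scaffold, rose by log2 fold changes of 0.60 ± 0.11 and 0.55 ± 0.13, as did Eif4h, a helper of the helicase, and Eif4a3, the helicase of the exon junction complex (0.52 ± 0.11 and 0.64 ± 0.10). Eif4b, another helper of the helicase, and Eif4g2, a scaffold without the cap-binding partner, had 0.06 ± 0.09 and 0.04 ± 0.11 and were not called. The share of Eif4g3 in the counts of Eif4g1 and Eif4g3 per kilobase went from 26.5% ± 1.95 in Sham to 35.3% ± 3.56 in MI (two-sided exact permutation p = 0.0286, adjusted p = 0.0396).

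Eif4e3 (chr4:132068598-132111079 on rn6), a cap-binding relative of eIF4E, was likewise lowest in MI. It was at 41.8, 32.9, 47.4 and 45.4 CPM in Sham, 20.9, 24.4, 29.6 and 24.8 CPM in MI, and 33.5, 53.1, 52.8 and 57.5 CPM with iCarP+/Light+. The MI rats were below all others, and iCarP+/Light+ rat 1 lay near the lowest Sham rat while the other 3 were above every Sham rat. The log2 fold change was -0.75 ± 0.17 in MI against Sham (edgeR adjusted p = 0.00215), 0.98 ± 0.17 in iCarP+/Light+ against MI (1.97-fold; edgeR adjusted p = 0.00205) and 0.23 ± 0.17 in iCarP+/Light+ against Sham (edgeR adjusted p = 0.253). With total counts as scaling the first was -0.17 and not called, and the third was 0.54 and called higher (edgeR adjusted p = 0.00656), beside an all-gene median of 0.33. Without iCarP+/Light+ rat 1 the third was called at 0.38 (edgeR adjusted p = 0.0334). Of the 10 leukocyte markers, 5 were higher and 2 lower in iCarP+/Light+ against MI, with overlapping summed levels, and their part in the difference was not tested.

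The inhibitor Eif4ebp1 (chr16:68954875-68968248 on rn6), whose protein holds eIF4E away from the scaffold until mTORC1 phosphorylates it, stepped up in both comparisons. It was at 51.4, 45.7, 33.1 and 39.2 CPM in Sham, 83.8, 106, 123 and 86.8 CPM in MI, and 109.9, 167, 162 and 184 CPM with iCarP+/Light+. Sham rats were lowest, 3 of 4 iCarP+/Light+ rats were above all MI rats, and iCarP+/Light+ rat 1 lay within the MI range. The log2 fold change was 1.24 ± 0.19 in MI against Sham (2.36-fold; edgeR adjusted p = 7.21e-05) and 1.88 ± 0.19 in iCarP+/Light+ against Sham (3.67-fold; edgeR adjusted p = 1.98e-06). Between iCarP+/Light+ and MI it was 0.64 ± 0.18 (edgeR adjusted p = 0.0338), and this call was lost in 5 of 9 alternative fits, among them that with DESeq2's size factors (0.59; adjusted p = 0.0527), and when any 1 of 6 rats was left out (MI rat 1, 3 or 5, or iCarP+/Light+ rat 2, 4 or 5), with values of 0.47 to 0.67. Its relative Eif4ebp2 was at 46.9, 49.2, 48.4 and 38.7 CPM in Sham, 40.6, 35.3, 25.4 and 47.3 CPM in MI, and 34.9, 34.3, 37.6 and 37.3 CPM with iCarP+/Light+. These ranges overlapped between MI and Sham, and the log2 fold change there was -0.30 ± 0.16 (edgeR adjusted p = 0.112). Eif4enif1, which carries eIF4E into the nucleus, had -0.08 ± 0.18 and was not called. Per kilobase, Eif4ebp2 made up 34.2% ± 4.72 (SD, n = 4) of both genes in Sham, 15.5% ± 5.23 in MI and 10.2% ± 2.01 with iCarP+/Light+, and the difference in log2 ratio of -1.57 between MI and Sham was at the smallest p possible (two-sided exact permutation p = 0.0286, adjusted p = 0.0396), with p = 0.114 between iCarP+/Light+ and MI by the same exact test.

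Eif5a and Eif6 rose together after ligation. Eif5a, the hypusine-bearing factor that helps ribosomes through difficult peptide bonds, was at 419, 405, 335 and 396 CPM in Sham, 804, 731, 903 and 686 CPM in MI, and 742, 625, 717 and 643 CPM with iCarP+/Light+. Eif6, which keeps large ribosomal subunits apart from small ones, was at 53.2, 54.5, 44.1 and 54.5 CPM in Sham, 109, 91.7, 125 and 92.1 CPM in MI, and 116, 97.7, 112 and 110.1 CPM with iCarP+/Light+. For both genes the Sham values lay below all others, with log2 fold changes in MI against Sham of 1.01 ± 0.12 and 1.02 ± 0.12 (edgeR adjusted p of 1.24e-05 and 1.04e-05). Eif5a2, a rarer form of eIF5A, was at 15.2, 15.9, 17.5 and 12.5 CPM in Sham, 15.6, 16.2, 15.0 and 16.3 CPM in MI, and 20.8, 19.3, 21.1 and 16.7 CPM with iCarP+/Light+. All iCarP+/Light+ rats were above all MI rats, but the log2 fold change of 0.31 ± 0.13 was not called (edgeR adjusted p = 0.143). Against Sham it was 0.35 ± 0.13 (edgeR adjusted p = 0.0261), and the call was lost when iCarP+/Light+ rat 1 or 4 or Sham rat 1 or 5 was left out. Its share of both genes per kilobase was 0.977% ± 0.214 in Sham, 0.504% ± 0.0771 in MI and 0.703% ± 0.0509 with iCarP+/Light+, with all 3 differences at a two-sided exact permutation p of 0.0286 (adjusted p = 0.0396). Of the 2 hypusination enzymes, Dohh was higher (log2 fold change 0.71) and Dhps was lower (-0.53) in MI than in Sham, and neither was called between iCarP+/Light+ and MI.

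**Figure D4:**
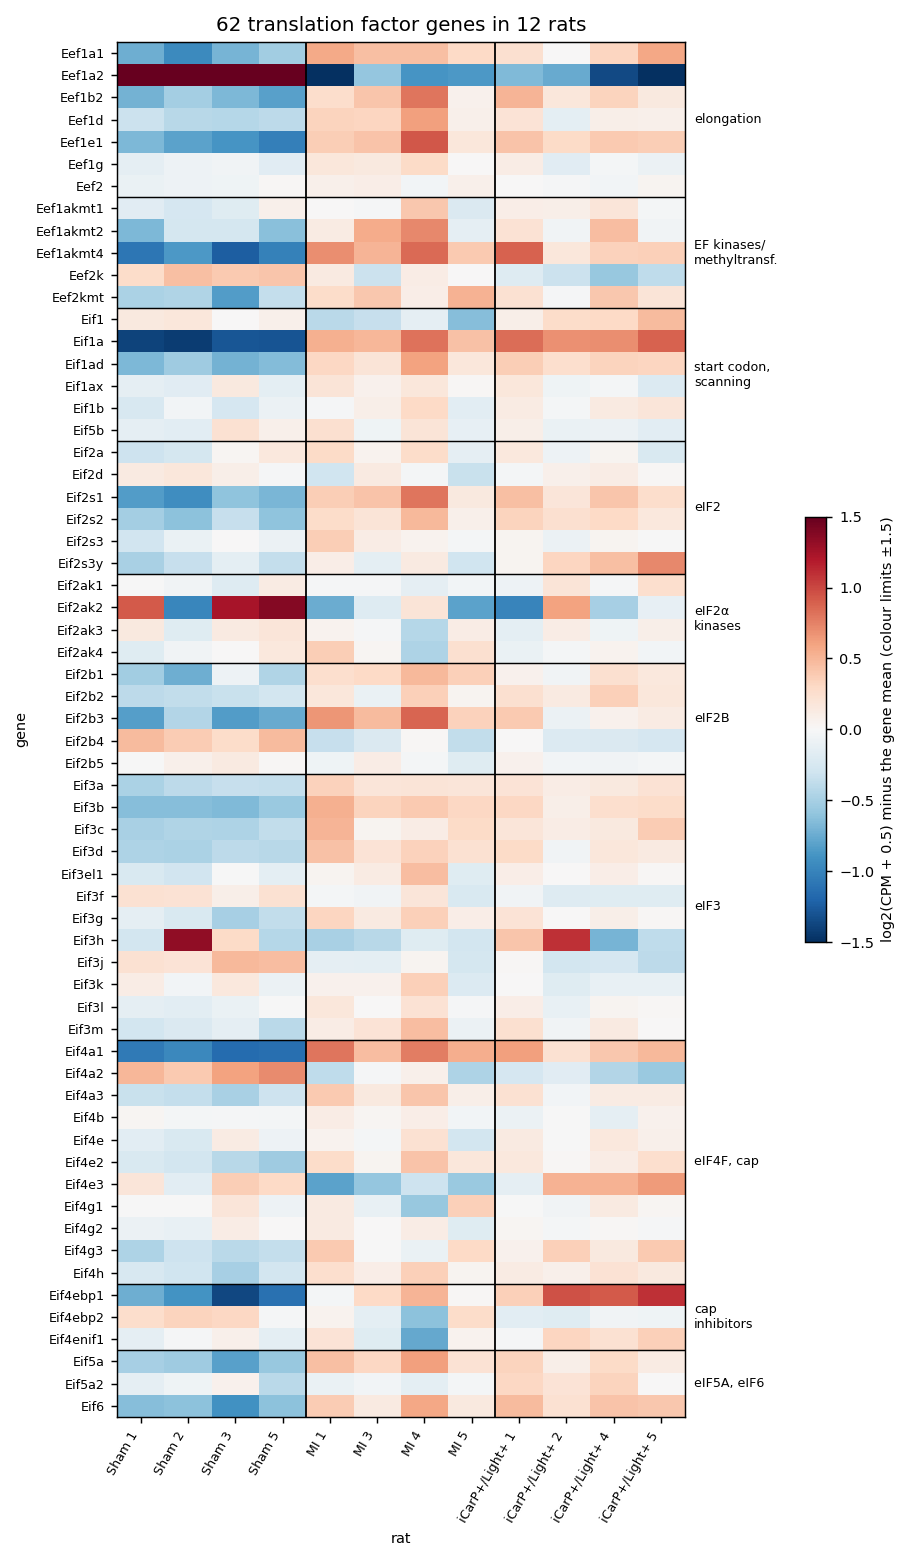
Level of the 62 genes tested (rows, by role) in the 12 rats (columns), as log2(CPM + 0.5) minus the mean of the gene over all rats (colour, limits ±1.5). Eif1a and Eif4a1 are below their means in all Sham columns and above them in all others, and Eef1a2 is the reverse.

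Other genes of the translation machinery gave a context for these values. Of 22 genes for cytosolic aminoacyl-tRNA synthetases and their scaffold proteins, 17 were higher and 1 (Qars) was lower in MI than in Sham, with a median log2 fold change of 0.65 there and -0.08 in iCarP+/Light+ against MI. Nars, Tars and Yars, which charge tRNAs with asparagine, threonine and tyrosine, rose by 1.12, 1.16 and 1.20 on the log2 scale. Of 10 mitochondrial translation factors, 8 were lower and 1 (Mtif3) was higher in MI, with a median of -1.20, among them the mitochondrial elongation factor Tufm at -1.36. Of 6 termination and rescue factors 2 were higher (the release factor Etf1 at 1.03 and the recycling factor Abce1 at 0.65) and 1 was lower (Hbs1l at -0.91). The poly(A)-binding proteins, which join the mRNA tail to eIF4G, moved apart, with Pabpc1 at 1.68 and Pabpc4 at -1.24, and the 8 poly(A)-binding and cap regulators had 3 higher and 3 lower in all. Of 14 genes of the mTORC1 axis, 1 (Sesn2) was higher and 4 were lower, with a median of -0.23, and the lower share was below that of all genes tested. Over all genes tested 30.2% were higher and 33.6% were lower in this comparison.

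Some genes that are induced when eIF2 is phosphorylated rose in iCarP+/Light+ against MI, a comparison in which the eIF2α kinase genes did not pass the test. Of 13 such targets and phosphatase subunits, 11 were higher in MI than in Sham (median log2 fold change 1.78), 8 rose from MI to iCarP+/Light+ (median 0.90), and 13 were higher in iCarP+/Light+ than in Sham. Over all genes tested the shares called higher were 30.2%, 11.6% and 33.5% in these comparisons. The transcription factor Atf4 had means of 173, 273 and 509 CPM in Sham, MI and iCarP+/Light+ rats, with a log2 fold change of 0.90 in iCarP+/Light+ against MI (edgeR adjusted p = 0.00287). Ddit3, a transcription factor induced late in that response, had 41.8, 28.8 and 114 CPM (1.98; edgeR adjusted p = 0.000415), and Ppp1r15a, the phosphatase subunit that restores eIF2, had 51.6, 65.2 and 189 CPM (1.54; edgeR adjusted p = 0.000112). In MI against Sham these last 2 genes were not called (-0.54 and 0.34). The amino acid enzymes Asns, Psat1 and Phgdh, the glutathione-degrading Chac1 and the transcription factor Atf3 were not called in iCarP+/Light+ against MI, with log2 fold changes of 0.26, 0.01, -0.57, 0.44 and -0.19. The stress genes Ddit4 and Sesn2, which restrain mTORC1, were the 2 genes of that axis that rose from MI to iCarP+/Light+, by 2.59 and 1.91 on the log2 scale. Sesn2 is in both lists and is among the 8 genes counted above. Eif4ebp1, known as a target of ATF4, was the only inhibitor of eIF4E in the set called higher in the same comparison. That call held in 4 of 9 alternative fits and in 6 of 12 fits that left out a rat, and the part of ATF4 in it was not tested. Mknk1, a kinase of eIF4E, was higher there (0.89, edgeR adjusted p = 0.00644) while Pdcd4, an inhibitor of eIF4A, was lower (-0.53, edgeR adjusted p = 0.00597). Several of these stress genes are also expressed by leukocytes, whose markers S100a8 and S100a9 differed by 3.37 and 3.53 on the log2 scale between iCarP+/Light+ and MI, while the markers Fcgr3a and Cd3e were lower (-1.98 and -1.25) and Lyz2 and Cd68 were not called (-0.45 and -0.39), and the part of leukocytes in these values was not tested.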

How the data were processed

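RNA-seq of left ventricular tissue from 12 rats was used. The authors deposited raw read counts per gene, and the submitters' notes name HISAT2, featureCounts and rn6, without versions; annotation release, strand setting and treatment of reads that map to several places are not given in the sources used here. The table was not filtered or normalized. Genes passing edgeR's filterByExpr (minimum count 10) were fitted with edgeR 4.0.16 in R 4.3.3 (TMM scaling, quasi-likelihood test, 1 mean per group, all 12 rats), with Benjamini-Hochberg adjustment over 15101 genes and a threshold of 0.05. The factors were chosen by symbol. The members, their roles, the pathway and marker lists and the named genes were chosen with earlier results of these data known. Named genes were key factors of each role, the 4 most changed called members in each direction, and all members called in iCarP+/Light+ against MI. Values by rat are also given for Eif2b3, Eif2s3y and Eif3b, which that rule did not pick. Within-rat log2 ratios of 6 pairs of related genes (counts per kilobase, prior count 2) were tested with exact two-sided permutations of rats, adjusted over 18 comparisons. Alternatives were DESeq2 size factors, total counts, DESeq2 1.42.0, limma-voom 3.58.1, other filters, no mitochondrial genes, 2 groups only, a replicate block and each rat left out. Within-group pairs of rats differed by more than counting noise. Promoters are from RefSeq (GRCr8). The scripts were tested on simulated data.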

Additional observations from a re-analysis of the deposited data

Results flagged for a closer look

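In 9 of 186 groups of 4 rats a single rat stood apart from the other 3, where chance alone gives about 9.3, by the gap to its nearest neighbour as a share of the group's range. The share was 0.831 for Eef2 in MI rat 4 (1973 CPM, the others 2134 to 2169) and 0.927 for Eif3a in MI rat 1 (346 CPM, the others 309 to 311). In Sham it was 0.881 for Eif1ax in rat 3 (172 CPM, the others 139 to 143), 0.861 for Eif2ak3 in rat 2 (20.1 CPM, the others 25.0 to 25.9) and 0.869 for Eif4b in rat 1 (234 CPM, the others 225 to 226). Sham rat 3 also stood apart for Eif3f (0.891; 208 CPM, the others 228 to 230.4) and Eif6 (0.888; 44.1 CPM, the others 53.2 to 54.5). iCarP+/Light+ rat 1 stood apart for Eif3f (0.945; 189 CPM, the others 172 to 173) and for Eif4e3 (0.840; 33.5 CPM, the others 52.8 to 57.5), the latter being a gene called higher in iCarP+/Light+ than in MI.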

How the results depend on the processing

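Of the 37 genes called in MI against Sham, 29 were called in all 9 alternative fits and 34 in all 12 fits that left out a rat; in iCarP+/Light+ against MI these were 2 and 2 of 3, and in iCarP+/Light+ against Sham 32 and 33 of 36. Total counts alone, under which the median of all genes was 0.52, -0.25 and 0.33 in the 3 comparisons, gave 52 higher and 1 lower member (median 0.83) in MI against Sham, 2 higher (Eif1 and Eif4e3) and 26 lower (median -0.35) in iCarP+/Light+ against MI, and 47 higher and 3 lower (median 0.58) in iCarP+/Light+ against Sham. In MI against Sham it turned Eif1 and Eif3j to 0.10, Eef2k to 0.19, Eif4g1 and Eif2ak1 to 0.56 and Eif2ak3 to 0.46. It also turned Eif4ebp2 to 0.29, Eif3f and Eif2d to 0.36, Eif2b5 to 0.49 and Eif4enif1 to 0.51. Members lower in iCarP+/Light+ than in MI, 0 in the reported fit, numbered 4 with DESeq2, 1 with limma-voom, and 2 with DESeq2's size factors, with at least 10 counts in every rat and without mitochondrial genes, and 0 to 2 when a rat was left out (2 without iCarP+/Light+ rat 1). The median in MI against Sham was 0.39 with only those 2 groups and 0.22 to 0.36 when a rat was left out. Same-numbered rats are different animals whose deviations correlated by -0.15 to 0.07 in 9 pairs, so the numbers were not taken to pair them. With the replicate block the members called were 28 higher and 7 lower in MI against Sham, 2 higher in iCarP+/Light+ against MI and 29 higher and 6 lower in iCarP+/Light+ against Sham; among the genes named with values by rat it ended the calls of Eif2ak2 in MI against Sham (-1.28; adjusted p = 0.0768) and of Eif4ebp1 in iCarP+/Light+ against MI (0.58; adjusted p = 0.153). The cause of these differences was not tested, and 4 rats per group limit the precision of small changes. For the alternative fits the shares of all genes called were not taken, so their counts do not set the members apart from other genes.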

Other observations

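Loci outside the symbol rule gave further values. eIF5, the GTPase-activating factor of eIF2, is listed as NEWGENE_619861 and had means of 194, 331 and 377 CPM in Sham, MI and iCarP+/Light+ rats, with a log2 fold change of 0.77 in MI against Sham (edgeR adjusted p = 5.45e-05) and 0.19 in iCarP+/Light+ against MI (edgeR adjusted p = 0.339). Eefsec, the elongation factor for selenocysteine, rose in MI by 0.85 on the log2 scale and was lower in iCarP+/Light+ than in MI (-0.56; edgeR adjusted p = 0.0242). A locus described as eIF4G1-like (LOC100912571) had means of 17.3, 18.9 and 4.56 CPM, with a log2 fold change of -2.05 in iCarP+/Light+ against MI that was not called (edgeR adjusted p = 0.142). In iCarP+/Light+ against Sham the synthetases had 17 higher and 1 lower of 22, the mitochondrial factors 0 and 8 of 10, the termination factors 3 and 1 of 6, the poly(A)-binding and cap regulators 3 and 4 of 8, the mTORC1 axis 2 and 7 of 14, and the hypusination enzymes 0 and 1 of 2, where 33.5% of all genes tested were higher and 33.0% were lower.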
